A study of Mus musculus with 3 samples.

Results

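Proton-moving rotary ATPases of the heart are described here, namely the mitochondrial ATP synthase and the vacuolar proton pump (V-ATPase), in adult Lrrc10-/- and wild-type (WT) hearts. Members were all gene probes of a whole mouse genome array whose gene name on the array begins with Atp5 (ATP synthase) or Atp6v (V-ATPase). There were 39 such genes with 64 probes among 41174 probes, of which 17 genes with 27 probes belonged to the ATP synthase group and 22 genes with 37 probes to the V-ATPase group. LRRC10 is a cardiac protein with leucine-rich repeats. Each of 3 2-colour arrays compared RNA pooled from 2 hearts of mice labelled Lrrc10-/- in the red dye Cy5 with a reference pool of heart RNA from 2 mice labelled Lrrc10+/+ in the green dye Cy3. All mice were of the C57/BL6 strain and 2 months old, with no treatment named, and per the methods the genotypes were littermates and the 3 arrays biological replicates. The dyes were never swapped. Whether a single WT pool served all 3 arrays is not given, and if it did, the spread between WT pools is in no test below. Pooling of hearts means that the spread between single animals was not measured.

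ATP synthase sits in the inner mitochondrial membrane and makes ATP from ADP as protons flow back into the matrix. Protons turn a membrane ring of c subunits, the ring turns a central shaft, and the shaft drives the catalytic F1 head, while a peripheral stalk holds the head still. The V-ATPase runs the same rotary design in reverse, with a cytosolic V1 sector that splits ATP and a membrane V0 sector that moves protons, and it acidifies lysosomes and endosomes. Cardiac muscle is rich in mitochondria, and its ATP synthase transcripts are among the abundant ones of the heart, whereas V-ATPase subunits are made in most cells, with some isoforms restricted to tissues such as kidney, bone or brain.

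An array value belongs to a probe of 60 bases, and several members were read by probes on different parts of a transcript. The first 30 bases of each probe of Atp6v1a, Atp6v0e2, Atp5b and Atp5f1 are given as deposited, 5′ to 3′, because their ratios differed or because only some of them were saturated.
Atp6v1a A_52_P184383: ttgtaagatacacattgtaacatgatccat
Atp6v1a A_51_P357474: aaagatgacttcctacagcaaaatgggtac
Atp6v0e2 A_51_P212038: ttttgggagtggcagcagaatacactatag
Atp6v0e2 A_51_P212030: cacagtcaggatcaaagcctccatgtttag
Atp5b A_52_P328078: acaagagccttgattgaagatgtgatgttc
Atp5b A_51_P207636: catggtggttactctgtatttgctggtgtt
Atp5b A_52_P553841: aatgccattggagaacttattgatgagaga
Atp5f1 A_51_P168708: aaggctcaagctcagccaattatgtgaata
Atp5f1 A_52_P106929: cgtcttgggctgattcctgaggacttagct
Atp5f1 A_52_P631514: gccagcttgcatactcattcggacgtttgt

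In only 2 genes did probes of the same gene overlap in sequence. The last 20 bases of one Atp5h probe are the first 20 of the other, and the Atp6v1e1 probes share 46 bases. These stretches are shown, 30 bases of each probe with the shared bases in capitals, since such probes read partly the same piece of RNA.
Atp5h A_52_P640355, bases 31 to 60: gaccagatgaCCATTGATGACTTGAATGAG
Atp5h A_51_P264186, bases 1 to 30: CCATTGATGACTTGAATGAGatcttcccag
Atp6v1e1 A_51_P166434, bases 5 to 34: tcagatgtccAACTTGATGAATCAAGCAAG
Atp6v1e1 A_52_P303388, bases 1 to 30: AACTTGATGAATCAAGCAAGGCTCAAAGTC

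The deleted gene was read first, as a check of the labels. The Lrrc10 probe was far brighter in Cy5, the channel labelled Lrrc10-/-, than in Cy3, the channel labelled WT, with processed signals of 14283, 20828 and 17703 in Cy5 and 476, 443 and 352 in Cy3 on arrays 1 to 3, a log2 ratio of 5.37 ± 0.41 (SD, n = 3 arrays) and an adjusted p of 2.6e-04 from limma. This goes against the labels, and whether the probe lies within the deleted part of the gene was not tested. Directions are therefore given by channel throughout, Cy5 being the one labelled Lrrc10-/-. The study describes ATP synthase genes and Nppa, the atrial natriuretic peptide gene, as upregulated in adult Lrrc10-/- hearts. Its evidence includes qRT-PCR for both, and a Western blot for the peptide, which are not part of the array data read here. For Atp5c1, Atp5h and Atp5o, members that the study names, the processed array signals lie the other way. These probes were saturated with equal raw signals in both channels, so their direction was not measured on the arrays. Nppa, from the list of cardiac muscle markers, was read below saturation and was also on the opposite side, with log2 ratios of -0.89, -0.61 and -0.82 on arrays 1 to 3 and a mean of -0.78 ± 0.14 (SD, n = 3, adjusted p = 1 from limma). Whether the dye labels were exchanged was not tested. Heart RNA was evident from 8 cardiac muscle markers, which all stood well above background throughout, and 5 of which had their brightest probe saturated. Of the 64 member probes, 58 passed a minimum mean processed signal of 20 and were tested together with all other probes of the array, 29606 in total. Well above background in both channels of every array were 57 member probes, and the others all belonged to V-ATPase genes.

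None of the 58 tested member probes passed an adjusted p of 0.05 by limma, against 2 of all 29606 tested probes (0.00676%). Without adjustment 7 member probes had a limma p under 0.05, where the share over the array was 3.07%, and the methods' t-test gave 6 without adjustment, beside 1246 of all 29606 probes, and 0 with it. The 7 by limma were 4 saturated ATP synthase probes, of Atp5b, Atp5c1, Atp5h and Atp5o, and 3 V-ATPase probes, of Atp6v1a and Atp6v0e2 (2 probes). The study chose probes with a ratio of at least 1.2 in the same direction on all 3 arrays and a p under 0.05. That selection, with the p applied here to each array, took 1 member probe brighter in Cy5 and 4 brighter in Cy3 (without array 2, 7 of ATP synthase in Cy3 in place of 3, where the count over the array went from 151 to 637). Over the array it took 0.405% of tested probes in Cy5 and 0.51% in Cy3. The single probe in Cy5 was that of Atp6v1a. In Cy3 it took saturated probes of Atp5c1, Atp5h and Atp5o, and an unsaturated probe of Atp6v0e2.

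Saturation separated the families. A spot is saturated when its pixels reach the top of the scanner's range, so that more RNA cannot give more signal. Of the 27 ATP synthase probes 14 were saturated in some channel of some array, and they belonged to 12 of the 17 genes, while 0 of the 37 V-ATPase probes were. For 9 ATP synthase genes no probe was free of saturation. In both channels of all 3 arrays 6 probes were saturated, a probe each of Atp5b, Atp5c1, Atp5g3 and Atp5o and both probes of Atp5h. Among the subunits in this group, Atp5b (beta) holds the catalytic sites, Atp5c1 (gamma) is the turning shaft, Atp5o (OSCP) and Atp5h (subunit d) belong to the peripheral stalk, and Atp5g3 encodes the c subunit of the ring.

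Atp5c1, Atp5h and Atp5o are among the ATP synthase genes that the study names. Processed signals of Atp5c1 were 224248, 239437 and 164798 in Cy3 on arrays 1 to 3 and 119440.0, 168957 and 113104 in Cy5. Those of Atp5o were 187387, 202802 and 145117 in Cy3 and 116253, 151508 and 107876 in Cy5. For the Atp5h probe A_52_P640355 they were 240834, 249888 and 166655 in Cy3 and 127202, 168858 and 108770.0 in Cy5. The other Atp5h probe, A_51_P264186, had 201513, 216408 and 150197 in Cy3 and 129974, 178909 and 128759 in Cy5. All of these pairs lay lower in Cy5 on every array after processing. In the raw mean signals the same spots stood at the same ceiling in both channels: the median log2 ratio of the 6 fully saturated member probes was 0.0004 on each array before processing. After the dye normalization it was -0.74, -0.41 and -0.40. All 36 probes of the array that were saturated in both channels throughout were below 0 on all arrays after processing, with medians of -0.73, -0.41 and -0.39. No fold change is given for these members, since neither channel was measured.

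**Figure D1:**
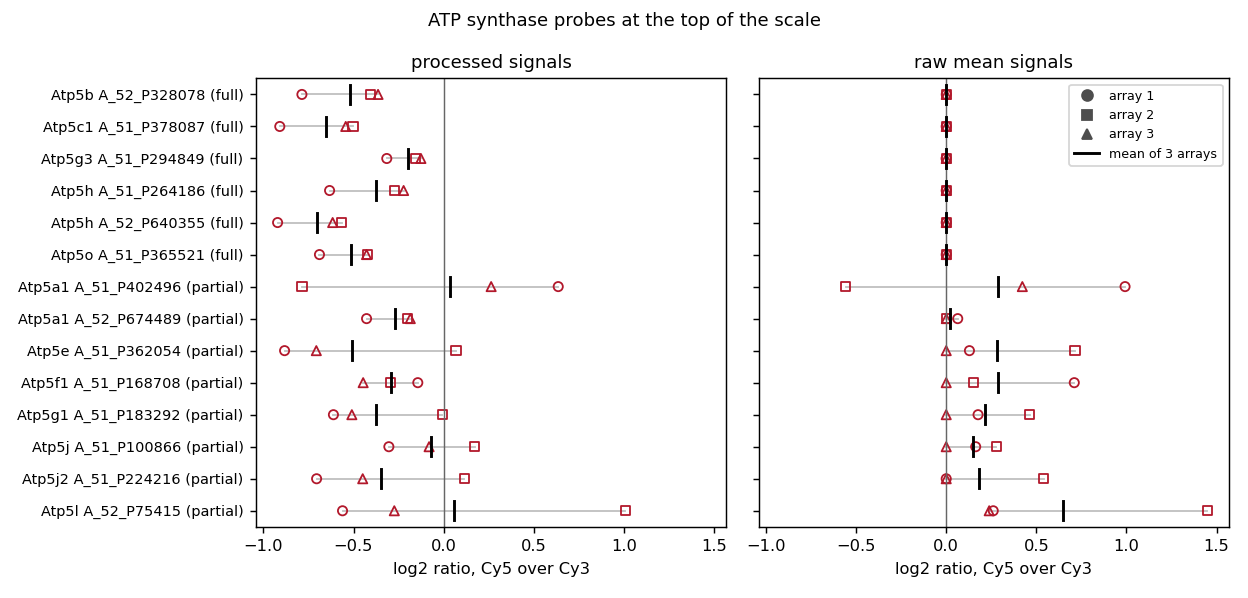
Cy5-to-Cy3 log2 ratio (Cy5 labelled Lrrc10-/-) on each array for the 14 ATP synthase probes with saturation, from processed signals (left) and raw mean signals (right); open symbols are arrays, black bars are means of 3 arrays, and full or partial says whether both channels of all arrays were saturated. The 6 fully saturated probes sit at 0 before processing and below 0 after it.

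A further 8 ATP synthase probes were saturated in part. In Cy5 the probes of Atp5e, Atp5f1 (A_51_P168708), Atp5g1, Atp5j, Atp5j2 (A_51_P224216) and Atp5a1 (A_52_P674489) were saturated on all arrays, and in Cy3 on 1 or 2 arrays. Atp5a1 (alpha), Atp5e (epsilon), Atp5f1 (subunit b), Atp5j (coupling factor 6) and Atp5j2 (subunit f) had no probe on their RefSeq mRNA that was measured in both channels on every array, and neither did the c subunit gene Atp5g1. No fold is given for these saturated probes. The other Atp5a1 probe, A_51_P402496, was saturated only in Cy3 on array 2. On arrays 1 and 3 its log2 ratios were 0.64 and 0.26, from signals of 168378 and 169751 in Cy5 and 108410.0 and 141442 in Cy3. Atp5l (subunit g) was saturated only in Cy5 on array 3, and its ratios on arrays 1 and 2 were -0.56 and 1.01. The alpha subunit was thus brighter in Cy5 on both arrays that measured it by this probe, and subunit g changed sides between its arrays.

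Unsaturated values were left for 13 ATP synthase probes of 8 genes. In the F1 head, Atp5b was read by the probe A_51_P207636 with processed signals of 76903, 206869 and 95412 in Cy3 and 105941, 126976 and 140618 in Cy5. Its log2 ratios were 0.46, -0.70 and 0.56 on arrays 1 to 3, a mean of 0.11 ± 0.70 (SD, n = 3). The probe A_52_P553841 of the same gene gave -0.02, -1.02 and 0.23, a mean of -0.27 ± 0.66, from signals of 21550.4, 51330.5 and 20954 in Cy3 and 21263, 25307 and 24577 in Cy5. Array 2 was the low one for both probes of the catalytic beta subunit, through a high Cy3 signal, and the channels overlapped. The delta subunit gene Atp5d, part of the central stalk, had ratios of 0.03, -0.12 and -0.00 and the smallest spread of the 13 probes, a mean of -0.03 ± 0.08.

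In the peripheral stalk only Atp5f1 (subunit b) had unsaturated probes. A_52_P106929, designed on a cDNA clone, had signals of 38882, 61541 and 31109.9 in Cy3 and 53064, 68246 and 53406 in Cy5, with log2 ratios of 0.45, 0.15 and 0.78 and a mean of 0.46 ± 0.32 (SD, n = 3, adjusted p = 1 from limma). A_52_P631514, designed on a different clone, had signals of 269, 204 and 321 in Cy3 and 152, 194 and 221 in Cy5, with ratios of -0.83, -0.08 and -0.54 and a mean of -0.48 ± 0.38 (adjusted p = 1). Both probes kept to a single side on all arrays, but on opposite sides. Before the dye normalization the raw mean signals of the second gave -0.14, 0.29 and -0.09, with no common side of 0. The median raw ratio of unsaturated ATP synthase probes was 0.21, 0.32 and 0.53 on arrays 1 to 3. On every array the second probe lay below this median and the first above it. With normexp and loess or median centring the first was at 0.75 and 1.21 (adjusted p = 0.689 and 0.0687 from limma) and the second at -0.30 and -0.16. Which transcript form each clone probe reads is not given in the sources used here.

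Among the membrane subunits, Atp5k (subunit e) had log2 ratios of -0.55, 1.07 and 0.14, a mean of 0.22 ± 0.81 (SD, n = 3). Its signals were 74179, 38857 and 103370.0 in Cy3 and 50777, 81814 and 113707 in Cy5, so array 1 was lower and array 2 higher in Cy5. Atp5g2, a gene of the c subunit, was at -0.37, 0.19 and -0.13 with its brighter probe and at -0.62, -0.20 and 0.05 with the other. The clone probe of Atp5j2 was at -0.69, 0.76 and -0.02. Of the 2 genes named Atp5 that are not core subunits, Atp5s (coupling factor B, now Dmac2l) had a mean of -0.03 ± 0.38 and Atp5sl (now Dmac2) of 0.07 ± 0.35 by their brighter probes. No unsaturated probe of a membrane subunit kept to a single side on all 3 arrays.

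**Figure D2:**
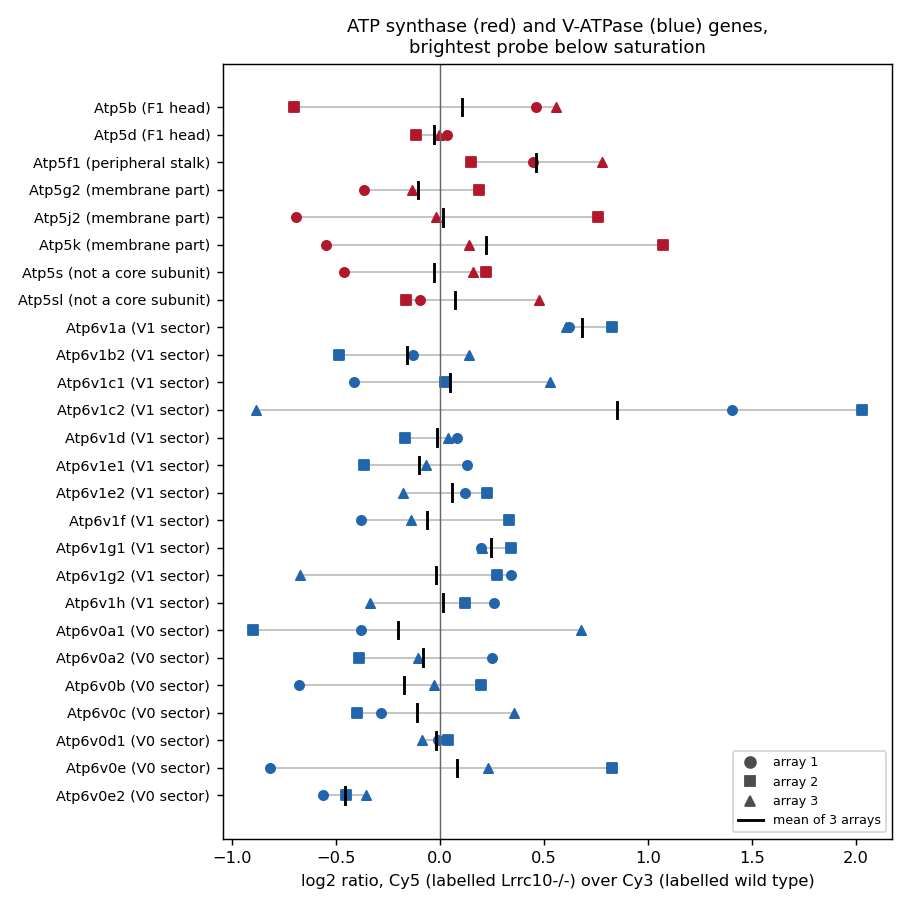
Cy5-to-Cy3 log2 ratio (Cy5 labelled Lrrc10-/-) on each of 3 arrays for the 26 member genes with a tested probe below saturation, by the brightest such probe and ordered by place in the complex, with ATP synthase in red and V-ATPase in blue; symbols are arrays and black bars are means. Most genes have arrays on both sides of 0, and Atp6v1a, Atp6v1g1 and Atp5f1 lie above 0 and Atp6v0e2 below 0 on every array.

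In the V1 sector, the catalytic subunit A gene Atp6v1a gave the only member probe that passed the selection in Cy5. The probe A_52_P184383 had processed signals of 424, 585 and 361 in Cy3 and 651, 1036 and 549 in Cy5 on arrays 1 to 3. Its log2 ratios were 0.62, 0.83 and 0.61, with a mean of 0.68 ± 0.12 (SD, n = 3 arrays), an adjusted p of 1 and a limma p of 0.00965 before adjustment. Cy5 was above Cy3 on each array, although the signals of array 3 in Cy5 lay below those of array 2 in Cy3. The probe A_51_P357474 of the same gene had signals of 304, 536 and 203 in Cy3 and 355, 479.8 and 234 in Cy5. Its ratios were 0.22, -0.16 and 0.20, a mean of 0.09 ± 0.21, so that the means of the Atp6v1a probes lay 0.59 apart, more than the spread of either over the arrays. With normexp background correction and loess in place of the deposited processing, the first probe stood at 0.36.

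Atp6v1g1, the widespread form of subunit G in the stalk, was brighter in Cy5 on all arrays by the probe A_51_P140171. Signals were 70627, 78808 and 51101 in Cy3 and 80996, 99832 and 58746 in Cy5, and the log2 ratios of 0.20, 0.34 and 0.20 had a mean of 0.25 ± 0.08 (SD, n = 3, adjusted p = 1). Its other probe, A_52_P349738, was at 0.04, 0.35 and -0.05, and with normexp the first probe stood at 0.03 after loess and at 0.49 after median centring. The remaining widespread V1 subunits had arrays on both sides of 0. By brightest probe their means ranged from -0.16 ± 0.31 for Atp6v1b2, the widespread form of the nucleotide-binding subunit B, to 0.05 ± 0.47 for Atp6v1c1 (subunit C). Between them lay Atp6v1d (subunit D, central shaft) at -0.02 ± 0.13, Atp6v1e1 (subunit E, stalk) at -0.10 ± 0.25, Atp6v1f (subunit F, central shaft) at -0.06 ± 0.36 and the regulatory Atp6v1h (subunit H) at 0.01 ± 0.31. The overlapping Atp6v1e1 probes gave 0.13, -0.36 and -0.07 and 0.08, -0.48 and -0.10. Their means of -0.10 and -0.17 lay closer together than the arrays of either probe.

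In the V0 sector, Atp6v0e2, an isoform of the small membrane subunit e, was brighter in Cy3 on all arrays by both of its probes. A_51_P212038 had signals of 1258, 1793 and 1592 in Cy3 and 851, 1309.6 and 1242 in Cy5, with log2 ratios of -0.56, -0.45 and -0.36 and a mean of -0.46 ± 0.10 (SD, n = 3). A_51_P212030 had signals of 130.5, 169 and 197 in Cy3 and 56.9, 118 and 115 in Cy5, with ratios of -1.20, -0.52 and -0.77 and a mean of -0.83 ± 0.34. The adjusted p from limma was 1 for both, and the channels of the first overlapped while those of the second did not. Only the second met the selection, because the array p of the first was 0.0832 on array 3, and with normexp, after loess or after median centring, neither met it. Before the dye normalization the raw mean signals of these probes gave ratios of 0.12, -0.12 and 0.09 and of -0.13, 0.07 and -0.16, with no common side of 0. The median raw ratio of unsaturated V-ATPase probes was 0.59, 0.16 and 0.32 on arrays 1 to 3. Both Atp6v0e2 probes lay below it on every array. With normexp and median centring, the first was at -0.01 and the second at -0.25, and with loess in its place at -0.34 and -0.30. The other isoform Atp6v0e was at -0.82, 0.83 and 0.23 by the probe A_51_P336874 and at -1.05, 0.31 and 0.24 by the other.

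Of the 3 probes of Atp6v0a1, the widespread form of the large membrane subunit a, A_52_P399998 was brighter in Cy3 on all arrays. Its signals were 396, 413 and 349.8 in Cy3 and 235, 343 and 290.3 in Cy5, and its log2 ratios of -0.75, -0.27 and -0.27 had a mean of -0.43 ± 0.28 (SD, n = 3, adjusted p = 1). Before the dye normalization its raw mean signals gave -0.01, 0.06 and 0.03, with no common side of 0. On every array this probe lay below the median raw ratio of unsaturated V-ATPase probes, which was 0.59, 0.16 and 0.32. With normexp and median centring its mean was -0.11, and without array 1 it was -0.27. The brightest probe of the gene, A_51_P142089, was at -0.38, -0.90 and 0.68, and the third at -0.59, 0.37 and -0.11. For Atp6v0a2, the form of endosomes and Golgi, A_51_P317361 was the only one of 3 probes above 0 on all arrays, at 0.38, 0.01 and 0.05 with a mean of 0.15 ± 0.20, from signals of 1624, 2751 and 1639 in Cy3 and 2113, 2766 and 1694 in Cy5. With normexp and loess its mean was -0.025, and without array 1 it was 0.03. The proteolipid genes Atp6v0c and Atp6v0b were at -0.11 ± 0.41 and -0.17 ± 0.45, and Atp6v0d1 (subunit d, which couples ring and shaft) at -0.02 ± 0.06, the smallest spread of the V0 sector.

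**Figure D3:**
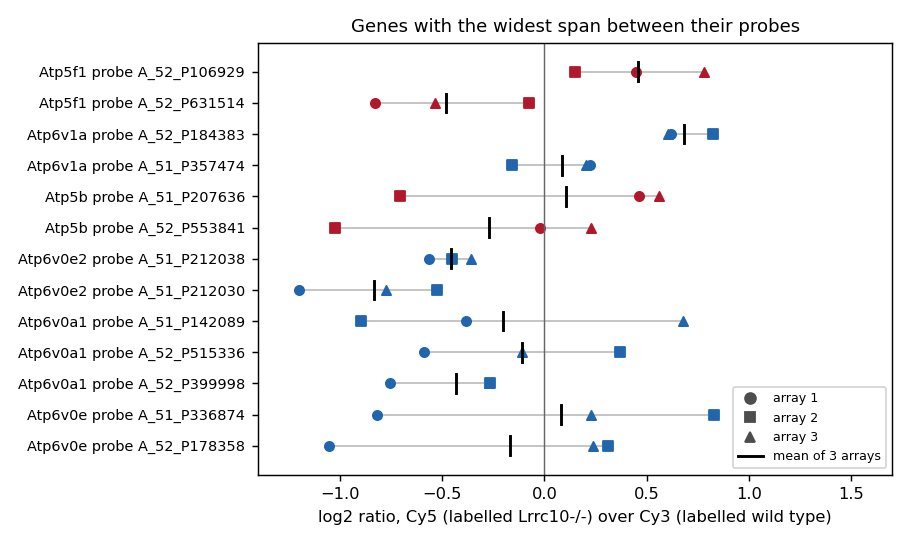
Cy5-to-Cy3 log2 ratio (Cy5 labelled Lrrc10-/-) on each array for every tested unsaturated probe of the 6 member genes with the widest span between probe means; symbols are arrays, black bars are means, red is ATP synthase and blue V-ATPase. The Atp5f1 probes lie at 0.46 and -0.48 and the Atp6v1a probes at 0.68 and 0.09, while both Atp6v0e2 probes lie below 0 on all arrays.

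Of the 15 member genes with several unsaturated tested probes, 5 had probe means on both sides of 0, and in 2 of these, Atp5b and Atp5f1, the means lay more than 0.3 apart. The median span between the highest and lowest probe mean of a gene was 0.15. Probe GC content did not track the ratios, with Pearson's r of 0.00, -0.02 and -0.11 on arrays 1 to 3 over the 44 unsaturated tested member probes, which share arrays and are given as a description.

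The tissue-restricted isoforms divided by detection. In all 3 arrays both channels were below the limit for well above background at both probes of Atp6v0a4 and of Atp6v1g3 (kidney forms) and at the probe of Atp6v0d2 (osteoclast and kidney form), and processed signals there did not exceed 12.0. Atp6v1b1, the kidney and inner ear form of subunit B, was not well above background in Cy5 on any array and was in Cy3 on arrays 1 and 2. Its signals were 40.8, 41.7 and 20.3 in Cy3 and 14.6, 11.8 and 9.86 in Cy5. Its mean signal was under the minimum for a test, and no fold is given. The raw mean signals, with background not subtracted, gave log2 ratios of 0.14, 0.10 and 0.23, above 0 on all arrays. So did the probes undetected in both channels, such as that of Atp6v0d2 at 0.26, 0.19 and 0.22. The raw ratios at this signal level therefore give no direction for Atp6v1b1. Atp6v1e2 (testis form) and Atp6v1g2 (brain form) were well above background on all arrays, with mean log2 ratios of 0.06 ± 0.21 and -0.02 ± 0.57 (SD, n = 3) by their brightest probes. The other 3 markers of kidney intercalated cells included Foxi1, their defining transcription factor, with a mean signal of 5.67, and Slc4a1 and Slc26a4, which were tested and not called.

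Atp6v1c2, the kidney and lung form of subunit C, had the largest spread of all member probes. Its signals were 318, 209 and 1361 in Cy3 and 842, 854 and 738 in Cy5, and its log2 ratios were 1.41, 2.03 and -0.88, a mean of 0.85 ± 1.53 (SD, n = 3, adjusted p = 1 from limma). Cy5 was alike on the 3 arrays, and Cy3 was high on array 3. Without array 3 the mean was 1.72 with an adjusted p of 1.6e-05, the only member probe called by limma when an array was left out, and 545 probes of the array were called in that setting. Markers of other cell types also changed sides between arrays. Of 5 fat cell markers 2 were well above background throughout and 4 were tested. Their median was 1.64, -0.50 and -1.33 on arrays 1 to 3, with Cfd at 2.26, -0.28 and -1.91 and leptin (Lep) at a mean signal of 5.73, and that of 2 red blood cell genes was 0.32, 1.03 and -0.43. The part of these cells in the Atp6v1c2 values was not tested, and in bulk RNA fewer cells of a type and less RNA per cell cannot be told apart.

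Set against each other over the genes with an unsaturated tested probe, the families did not separate. On the ATP synthase side this left out 9 of 17 genes, and Atp5s and Atp5sl, which are not core subunits, were included. By the brightest unsaturated probe of each gene, the median log2 ratio of 8 ATP synthase genes was -0.23, 0.17 and 0.15 on arrays 1 to 3, and that of 18 V-ATPase genes was 0.04, 0.08 and -0.05. Over all 29407 tested unsaturated probes it was 0.01, 0.01 and -0.01. The difference of the medians, ATP synthase minus V-ATPase, was -0.27, 0.09 and 0.20 on the arrays, a mean of 0.006 ± 0.24 (SD, n = 3), so it was smaller than the spread between arrays. With 3 arrays the smallest two-sided p of an exact sign-flip test is 0.25, so none was run. Medians over the gene means were 0.04 for ATP synthase and -0.02 for V-ATPase, beside 0.00 for all unsaturated probes. With the saturated probes kept in, the brightest probe of 17 ATP synthase genes gave -0.27, and the mean difference between the families became -0.34. With normexp and median centring the medians were 0.53 for ATP synthase and 0.38 for V-ATPase, where that of all unsaturated probes was 0.15. The mean difference between the families was 0.20 in that setting. With normexp and loess it was 0.14, beside medians of 0.11 for ATP synthase and 0.05 for V-ATPase.

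Within the V-ATPase, the median of 11 V1 genes was 0.13, 0.23 and -0.07 on arrays 1 to 3 and that of 7 V0 genes -0.38, -0.39 and -0.03. The V0 median was below that of V1 on arrays 1 and 2 and above it on array 3. Of the 44 unsaturated tested member probes, 4 were brighter in Cy5 on all arrays, or 9.09%, beside 10% of all such probes on the array. Another 4, again 9.09%, were brighter in Cy3 on all arrays, beside 10.8%. Both shares are near those of the whole array. The median SD over arrays was 0.34 for these member probes and 0.39 for all unsaturated tested probes.

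**Figure D4:**
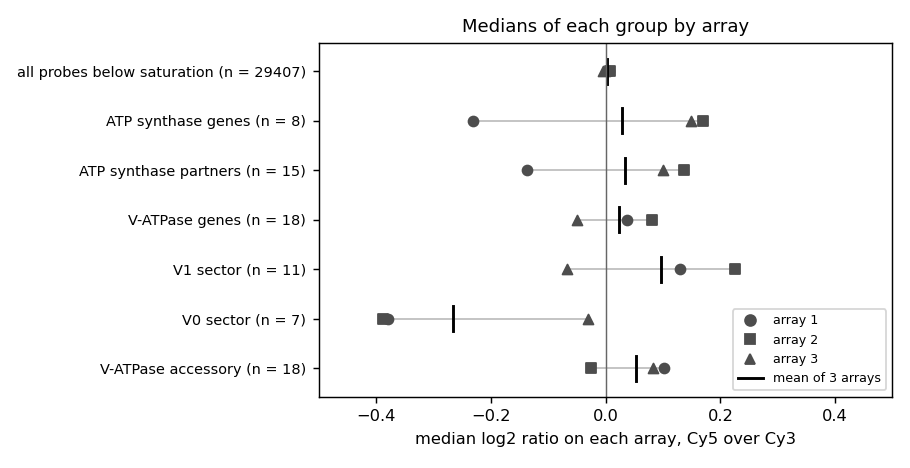
Median Cy5-to-Cy3 log2 ratio (Cy5 labelled Lrrc10-/-) on each of 3 arrays for all tested probes below saturation, for the member genes and their sectors, and for their partner genes, each gene by its brightest unsaturated probe; symbols are arrays, black bars are the mean of the 3 medians, and n is the number of probes or genes. The ATP synthase median lies at -0.23 on array 1 and at 0.17 and 0.15 on arrays 2 and 3. The partners, which include Atp5s and Atp5sl of the ATP synthase genes, lie at -0.14, 0.14 and 0.10.

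Genes that work with the pumps were read from lists. Of 18 ATP synthase partner and assembly genes, Atp5s and Atp5sl among them, 15 had an unsaturated tested probe, of which limma called 0, and 0 had an unadjusted p under 0.05, beside 3.07% of all tested probes. Their median was -0.14, 0.14 and 0.10 on arrays 1 to 3, with 1 gene on the Cy5 side throughout, Vdac3 (a channel of the outer mitochondrial membrane) at 0.19 ± 0.12 (SD, n = 3), and 1 on the Cy3 side, the F1 assembly factor Atpaf2 at -0.14 ± 0.01, where 10% and 10.8% of all unsaturated tested probes kept to these sides. The inhibitor Atpif1, which blocks ATP hydrolysis by the synthase, was at 0.01, 0.68 and -0.34, and the assembly factor Atpaf1 at -0.06 ± 0.20. Slc25a4, the heart form of the ADP/ATP carrier, was saturated in both channels on all arrays.

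Of the V-ATPase accessory and assembly genes, 18 had a probe, all unsaturated and tested, with a median of 0.10, -0.03 and 0.08 on arrays 1 to 3. Limma called 0, and 0 had an unadjusted p under 0.05. Of these 18 genes 4 kept to Cy5 on every array and 3 to Cy3, beside 10% and 10.8% of all unsaturated tested probes. Dmxl1, a partner in assembly of the pump, was at 0.28 ± 0.17 (SD, n = 3). Lamp1, an abundant lysosomal membrane protein, was at 0.20 ± 0.01 (SD, n = 3), and Oxr1 and Ncoa7, of a family that binds the pump, were at 0.25 ± 0.20 and 0.12 ± 0.09. The 3 genes in Cy3 were Mcoln1, a lysosomal calcium channel, at -0.40 ± 0.21, the lysosomal protease Ctsd at -0.29 ± 0.21 and Tcirg1, a subunit a isoform under another name, at -0.05 ± 0.06. Tfeb, the transcription factor of lysosomal genes, was at -0.55, -0.77 and 0.48. Lysosomes are plentiful in macrophages, and the median of 7 macrophage markers was -0.11, 0.11 and 0.05 on the arrays, with all 7 well above background, 1 marker on the Cy5 side throughout and 1 on the Cy3 side; the part of such cells in the V-ATPase values was not tested.

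Between arrays 1 and 2, 24 of the 44 unsaturated tested member probes changed sides, or 54.5%, near the 54.3% of all such probes on the array. Of the members 15 were below 0 on array 1 and above 0 on array 2, or 34.1%, beside 27.1% over the array, and 9 ran the other way, or 20.5%, beside 27.2%. Among the former were the small membrane subunits Atp5k and Atp6v0e and both probes of Atp6v1f, at -0.38 and 0.33 and at -0.58 and 0.30. Atp5l, which was unsaturated on these arrays, went the same way. A probe of Atp5b and both of Atp6v1e1 were among the latter. Over 8 ATP synthase genes Pearson's r between arrays 1 and 2 was -0.77 (Spearman's rho -0.88), and over 18 V-ATPase genes 0.56 (rho 0.31). Between arrays 1 and 3 it was 0.77 (rho 0.64) and -0.46 (rho -0.35). Between arrays 2 and 3 it was -0.44 (rho -0.50) and -0.42 (rho -0.22). These values describe points that share their arrays. Over all unsaturated tested probes Pearson's r was 0.10, -0.04 and -0.18 for these pairs of arrays.

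**Figure D5:**
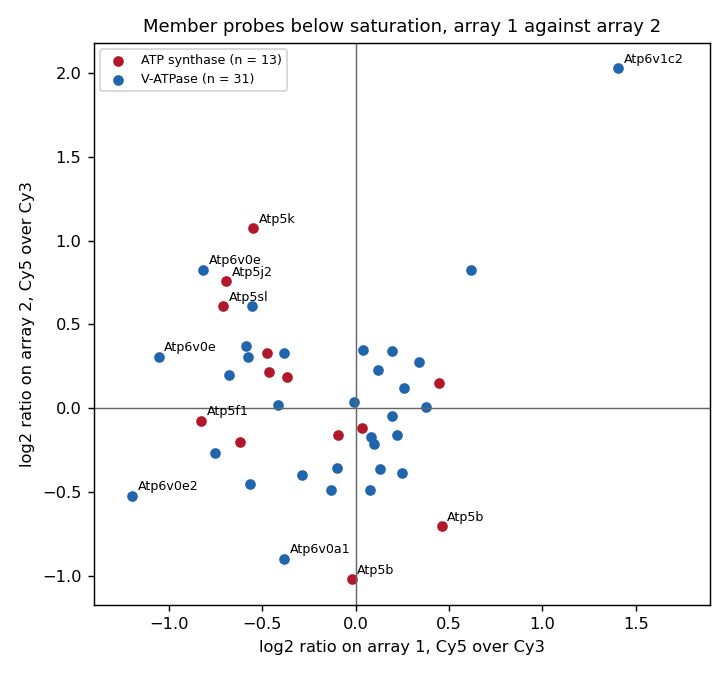
Cy5-to-Cy3 log2 ratio (Cy5 labelled Lrrc10-/-) on array 1 (horizontal) and array 2 (vertical) for the 44 tested member probes below saturation, with ATP synthase in red and V-ATPase in blue and names at the larger differences. Points at upper left, such as Atp5k and Atp6v0e, are below 0 on array 1 and above 0 on array 2, and Atp5b lies at lower right.

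Promoters of the members were read in RefSeq sequence of the build GRCm38.p6, which held 32 of the 39 genes. The 250 bases before each gene's start were searched on both strands for TCACGTGA, the core of the CLEAR element bound by Tfeb, and for GCATGCGC, a site type of the respiratory factor NRF1, a choice made after values were seen. TCACGTGA was present in the window of 1 of 16 V-ATPase genes, Atp6v1a, and of 0 of 16 ATP synthase genes, against 0.785% of all 32851 promoters. GCATGCGC was present for 3 ATP synthase genes, Atp5g2, Atp5k and Atp5l, and for 2 V-ATPase genes, Atp6v1e1 and Atp6v1f, against 2.26% of all promoters. The Atp6v1a window is printed because this gene held the only member probe selected in Cy5. It lies at chr16:44139260-44139509 on the minus strand, and the motif, in capitals, starts 132 bases before the start of the gene.
Atp6v1a promoter: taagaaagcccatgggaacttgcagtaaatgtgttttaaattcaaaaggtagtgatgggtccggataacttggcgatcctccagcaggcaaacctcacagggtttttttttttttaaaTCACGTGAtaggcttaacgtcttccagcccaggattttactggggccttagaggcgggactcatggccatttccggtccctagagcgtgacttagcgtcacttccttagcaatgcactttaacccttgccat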

How the data were processed

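Heart RNA was measured on 3 two-colour Agilent arrays of a single slide, scanned together, which leaves no batches to compare. Per the file headers, the authors ran Feature Extraction 9.1.3.1. Its deposited processed signal intensity had background subtracted and dyes normalized by linear and lowess steps, and its mean signal intensity is raw. The deposited log10 ratio was computed from the processed signals, with a deposited p-value for each spot of an array. The series table of the authors repeats these log10 ratios. Embryonic hearts were not analysed here.

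Ratios of Cy5 over Cy3 were turned to log2, spots marked as outliers dropped, and spots of a probe were averaged. Probes with a geometric mean processed signal of at least 20 were tested with limma 3.58.1 in R 4.3.3 (intercept, eBayes with intensity trend, two-sided, Benjamini-Hochberg adjustment over all tested probes). The fit was tested on simulated data. Saturated probes were reported apart. Each gene was otherwise read by its brightest tested probe without saturation. Precision is limited by the small number of arrays. RefSeq accessions named 56 of 64 member probes.

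All members were named. Values of every array were given for probes that passed limma or the selection, unsaturated probes of a single sign on all arrays (up to 6 in each direction and family), Atp5c1, Atp5h and Atp5o, and genes whose probes differed in sign by over 0.3. Tissue-restricted isoforms were given with their detection. Members, lists and this rule were chosen with earlier results of these data known, and further examples were picked after their values were seen. Marker lists covered cardiac and skeletal muscle, macrophage, kidney intercalated cell, osteoclast, fat and red blood cells. Alternatives were normexp (offset 50) with loess or median centring, no signal minimum or 50, no eBayes trend, the methods' t-test, saturated probes kept, all probes, and each array left out.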

Additional observations from a re-analysis of the deposited data

How the results depend on the processing

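No member was called by limma with the processing as deposited, with normexp (either scaling), with any signal minimum, without the trend or with the methods' t-test after adjustment, which without adjustment gave 6 member probes of 1246 over the array. Leaving out an array gave 0 to 1, the 1 being Atp6v1c2 without array 3. Normexp with median centring moved the median of all unsaturated probes to 0.15, that of ATP synthase genes to 0.53 and that of V-ATPase genes to 0.38, so both were above the typical probe in this setting, and the cause was not tested. With saturated probes kept, the ATP synthase median was -0.27 and the difference of medians -0.34. Leaving out an array gave -0.07 to 0.17 for ATP synthase, -0.03 to 0.02 for V-ATPase and -0.09 to 0.14 for their difference; probes of RefSeq mRNAs and core subunits alone, both chosen after seeing the data, kept these values within the spread between arrays. The 3 ATP synthase probes selected in Cy3 became 0 with median centring and 0 without saturated probes, and 3 to 7 without an array (7 without array 2, where the count over all probes went from 151 to 637); in Cy5 the count was 0 to 2 (2 without array 2, 1 without array 1). The V-ATPase probe selected in Cy3, of Atp6v0e2, was lost with normexp and loess (0) and with median centring (0), and the fold alone gave 3; without an array the counts were 1 to 2 in Cy3 and 1 to 2 in Cy5, with both 2s without array 3.

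Of 50 values of 10 named unsaturated probes under alternatives, 45 kept their sign and 5 did not. Most of these probes had been chosen for a single sign on all arrays, so leaving out an array could not change their sign. The count of 45 therefore overstates how stable the signs were. Atp6v0a2 turned to -0.025 and Atp5b A_51_P207636 to -0.14 with normexp and loess. Without an array Atp5b A_51_P207636 ranged from -0.12 (without array 3) to 0.51 and was -0.07 without array 1, and Atp5b A_52_P553841 ranged from -0.52 to 0.11, the latter without array 2. Atp5f1 A_52_P106929 ranged from 0.30 (without array 3) to 1.21 (normexp with median centring), and in the same setting Atp6v0a1 A_52_P399998 was at -0.11 and Atp6v0a2 at 0.33. No paired analysis was possible because the arrays form a single group of ratios, with no other group to share replicate numbers; each ratio already sets the channels of an array against each other. Saturation limits the ATP synthase genes, for 9 of which no ratio could be measured throughout, and signal near background limits Atp6v0a4, Atp6v0d2, Atp6v1b1 and Atp6v1g3.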

Other observations

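Markers outside the report's lists of partners were read as values. Of the cardiac muscle markers other than Nppa, the atrial light chain gene Myl7 was at -0.21, 3.41 and -1.27 on arrays 1 to 3. The calcium release channel gene Ryr2 was at 0.23, -1.08 and -0.21. Of 7 skeletal muscle markers, 0 were of a single sign on all arrays, with medians of -0.18, 0.32 and -0.25. The median of 4 osteoclast markers was -0.52, -0.47 and 0.08. Of these the protease Ctsk was on the Cy5 side on every array, with a mean of 0.65 ± 0.49 (SD, n = 3), and the phosphatase Acp5, which was not well above background in both channels of every array, on the Cy3 side. Limma called 0 of the 15 tested genes of these 3 lists, and 3 (Nppa, Ctsk and the dim Acp5) had an unadjusted p under 0.05, beside 3.07% of all tested probes.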
